A study of Mus musculus with 3 samples.

Results

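The 8 genes described here encode parts of the renin-angiotensin system, the hormone cascade that controls blood pressure and salt balance, and were followed through every cell class found in preparations of mouse kidney glomeruli. They were taken by symbol from the 31058 features of the deposited count tables, where all 8 are listed: Ren1, Akr1b7, Agt, Ace, Agtr1a, Enpep, Mme and Atp6ap2. Glomeruli are the filters of the kidney, and their cells were profiled by droplet sequencing of 3′ RNA ends, in which each captured molecule carries a molecular identifier (UMI). There were 3 libraries, from a male mouse, from a female mouse with the added allele ERalphaKO (named RPC-ERαKO in the labels and female ERaKO here) and from a female mouse. All were healthy, of C57Bl/6 background, and shared the transgenes Pax2.rtTA and TetO.Cre with the reporter R26.Confetti, so that Cre depends on doxycycline and on cells in which the Pax2 construct is active. Doxycycline was begun at day 20 and tracing ran until day 90. Each group is 1 library (n = 1), so no test of a difference between groups is possible and no p-value is given. Every interval in parentheses is a 95% interval that covers counting error only.

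Renin, made by juxtaglomerular cells in the wall of the arteriole that feeds the glomerulus, cuts angiotensinogen to angiotensin I, and angiotensin-converting enzyme turns this into angiotensin II. Angiotensin II contracts mesangial and smooth muscle cells through the type 1 receptor, and cell-surface peptidases such as aminopeptidase A and neprilysin trim the peptides further. Renin cells belong to the mural lineage, the smooth muscle and pericyte-like cells around vessels, and smooth muscle cells of the same vessels can switch the renin gene on and off.

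Ren1 and Akr1b7 varied together from cell to cell, and the bases upstream of both are shown for that reason, as RefSeq gives them on GRCm38.p6. Each run is the 250 bases before the RefSeq start site, 5′ to 3′ on the plus strand, at chr1:133350424-133350673 for Ren1 and chr6:34412112-34412361 for Akr1b7. Capitals mark an exact TATAAA.
Ren1: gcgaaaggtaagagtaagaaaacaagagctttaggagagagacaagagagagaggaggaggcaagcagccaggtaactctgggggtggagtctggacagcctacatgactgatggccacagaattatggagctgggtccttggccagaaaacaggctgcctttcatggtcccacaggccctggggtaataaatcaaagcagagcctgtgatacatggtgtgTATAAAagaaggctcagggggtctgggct
Akr1b7: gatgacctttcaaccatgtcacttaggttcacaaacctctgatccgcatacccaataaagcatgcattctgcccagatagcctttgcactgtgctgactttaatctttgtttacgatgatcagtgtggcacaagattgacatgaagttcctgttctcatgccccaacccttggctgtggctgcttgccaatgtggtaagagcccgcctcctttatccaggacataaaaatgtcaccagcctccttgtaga
Searches covered both strands of windows from 250 bases before to 50 after the start, for TATAAA (the TATA box), TGGGAA (the core of the Notch effector RBPJ) and the cyclic AMP response element, both whole and as its leading part TGACG, which the whole element contains. The Ren1 window held TATAAA at position -29 from the start and no other of these motifs. The Akr1b7 window held none of them. Of 32851 RefSeq mouse promoters of the same length, 13.6% held TATAAA, 25.6% TGGGAA, 20.8% TGACG and 1.79% the whole element. Promoter entries were found for 7 of the 8 genes, all but Agtr1a. TATAAA was also present at -30 for Agt, and on the opposite strand at -31 in an Ace window and at -52 and -1 for Enpep. Atp6ap2 held TGACG at -62, and Mme held none of the motifs.

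The analysis rests on 3224 male, 2520 female ERaKO and 2828 female cells, whose median depth was 7324, 8119 and 8832 UMIs. Over 25% of UMIs were mitochondrial in 20.97% of male, 33.99% of female ERaKO and 17.7% of female barcodes, which were left out. Any pair of libraries shared between 4 and 8 barcodes. Clusters were named from marker genes that include none of the 8, and the 8 were also kept out of the genes used for clustering. The names are to be read as mural-like, podocyte-like and so on. In mural cells the smooth muscle markers summed to 18680.1, 16845 and 13154 counts per 1000000 UMIs (CPM) in the male, female ERaKO and female libraries, against 31.6 to 43.2 CPM in podocytes. Every level below is in CPM, the UMIs of the gene per 1000000 UMIs of the class. The ERalphaKO label could not be checked: Esr1, the gene of oestrogen receptor alpha, had 2, 3 and 1 UMIs in male, female ERaKO and female podocytes, and which part of the gene is deleted is not given. It had 84, 125 and 69 UMIs in all kept cells of the same libraries. In mural cells it had 40, 25 and 25 UMIs, at 21.9 (15.6 to 29.8), 14.3 (9.25 to 21.1) and 20.2 (13.1 to 29.8) CPM. The library with the added allele was lowest there, with overlapping intervals. In proximal tubule cells it had 14, 71 and 8 UMIs and was highest in the library with the added allele, at 14.4 (11.2 to 18.1) CPM, against 2.93 (1.27 to 5.77) in the female library. Over all kept cells its level was not lower in that library, at 4.34 (3.61 to 5.17) CPM against 2.05 (1.59 to 2.59) in the female library. The library is called by its label throughout.

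**Figure D1:**
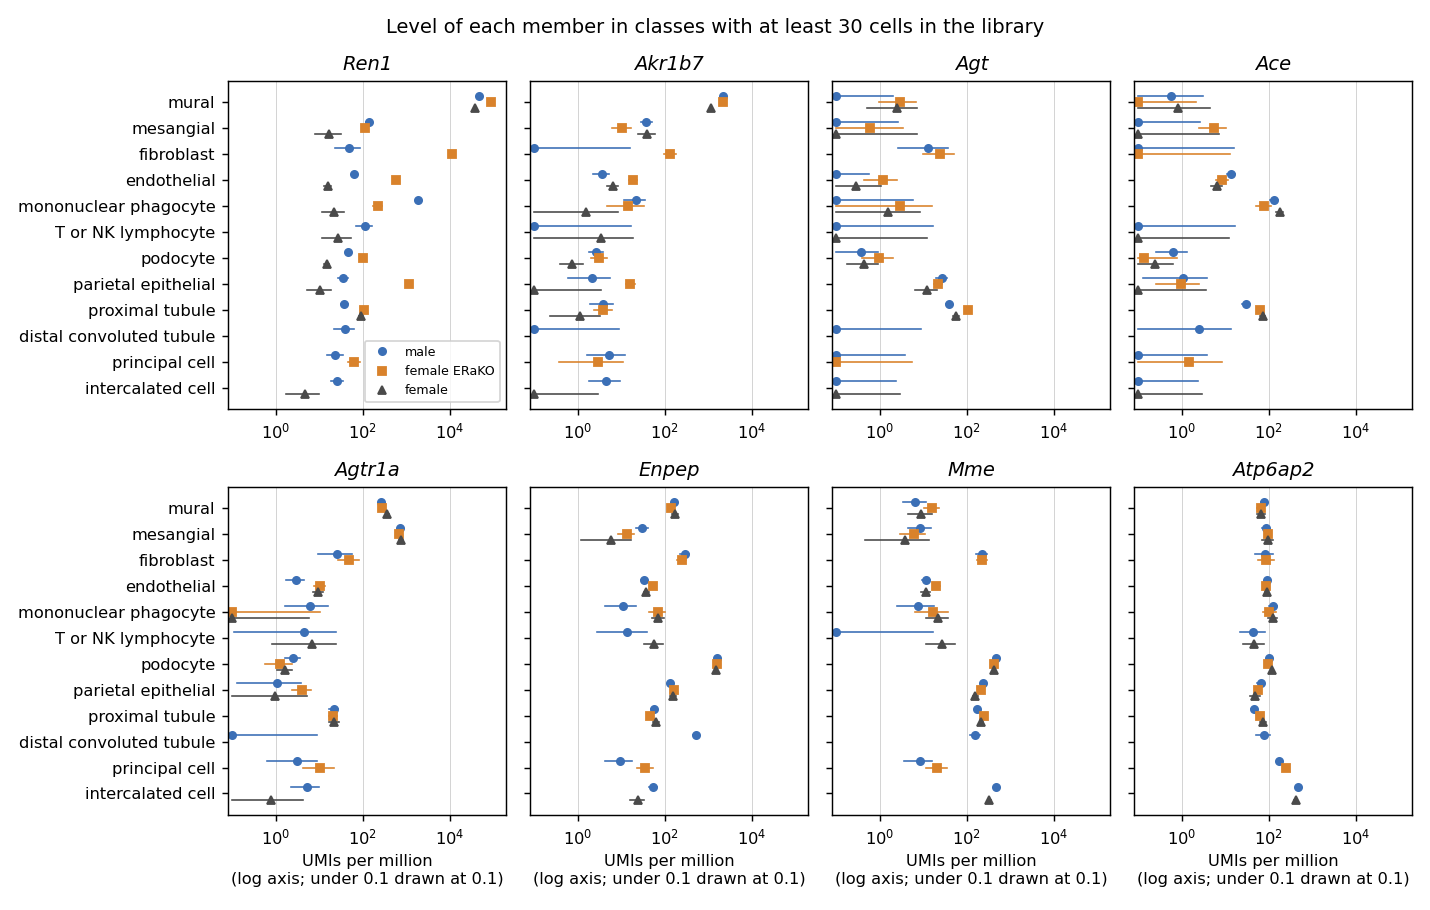
Levels of the 8 genes by cell class, in CPM on a log axis, with points for the male, female ERaKO and female libraries and lines for 95% Poisson intervals; a class is drawn only where the library holds at least 30 of its cells. Ren1 and Akr1b7 peak in mural cells, Agt in proximal tubule, Agtr1a in mesangial cells and Enpep in podocytes, while Atp6ap2 is found in every class.

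Ren1, the gene of renin (ENSMUSG00000070645, chr1:133350510-133360325, plus strand, GRCm38), was the most abundant of the 8 in all libraries. Mural cells held 87113 Ren1 UMIs in the male, 158663 in the female ERaKO and 46614 in the female library, from 286, 247 and 157 cells. This was 96.99%, 91.9% and 98.6% of all Ren1 UMIs of kept cells in the same libraries. The level was 47610.5 (47295 to 47928) CPM in male, 90717 (90271 to 91164) in female ERaKO and 37680.5 (37339 to 38024) in female mural cells. The female ERaKO level was the highest and the female level the lowest. Counting intervals do not cover the spread between cells or mice. The log2 difference, with 1 CPM added to each level, was 1.27 (1.25 to 1.28) for female ERaKO over female and 0.34 (0.32 to 0.35) for male over female. The first was past 1.5-fold, the limit used throughout, and the second was not. Both comparisons share the female library. Mural cells made up 8.87% of male, 9.80% of female ERaKO and 5.55% of female kept cells.

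Ren1 was spread very unevenly over mural cells. The highest single cell held 5307 UMIs in the male, 4233 in the female ERaKO and 5471 in the female library, while the median mural cell held 2, 14 and 0. A Ren1 UMI was found in 63.3%, 76.9% and 49.04% of male, female ERaKO and female mural cells, or in 57.3%, 72.5% and 42.04% after each cell was thinned to 4000 UMIs, which left out no mural cell. A cell is called Ren1-rich here at 10 or more Ren1 UMIs per 10000 UMIs of the cell. Such cells numbered 122 in the male, 134 in the female ERaKO and 48 in the female library. They were 42.7% (36.9 to 48.6) of male, 54.3% (47.8 to 60.6) of female ERaKO and 30.6% (23.5 to 38.4) of female mural cells, with exact binomial intervals. These intervals treat the cells of a library as independent and do not cover the spread between mice. Near that limit, between 5 and 20 Ren1 UMIs per 10000, lay 20 male, 21 female ERaKO and 8 female mural cells. At 1000 or more per 10000 there were 49 male, 75 female ERaKO and 15 female cells, in which renin was one of the main transcripts.

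**Figure D2:**
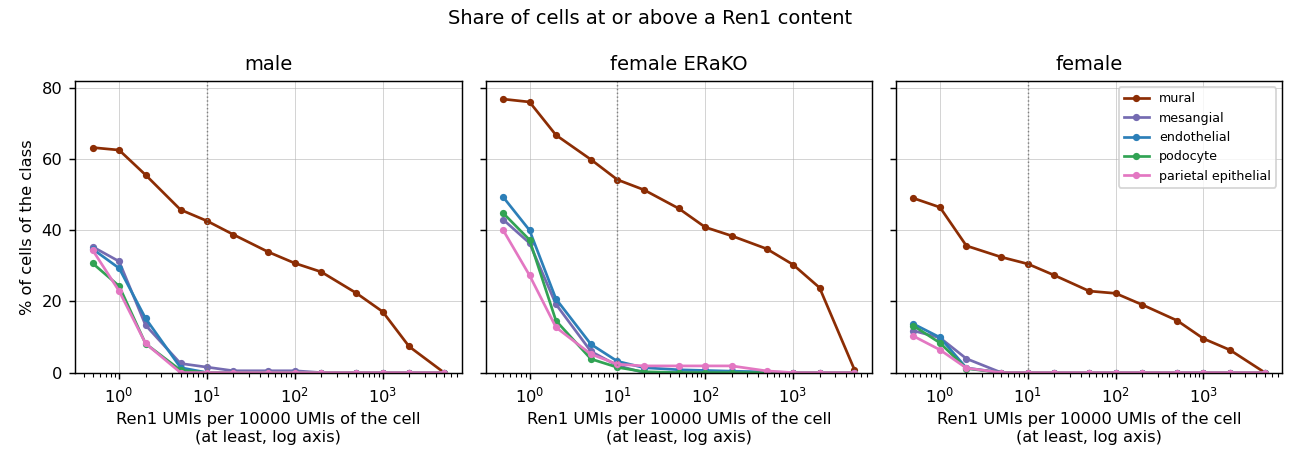
Share of the cells of a class, in %, at or above a given number of Ren1 UMIs per 10000 UMIs of the cell (log axis), in 3 panels for the male, female ERaKO and female libraries; the dotted line is at 10. Mural cells decline slowly over the whole range, while nearly all cells of the other classes lie below the dotted line.

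The mural class was made of 3 clusters, and Ren1 separated them although it took no part in the clustering. Cluster 11 was led by Ren1 and Akr1b7, with Mgp, Fam46a and Sncg. Cluster 14 was led by the contractile genes Myh11, Acta2 and Cnn1, and cluster 10 by Rgs5 and Rergl. Cluster 11 made up 34.3% (28.8 to 40.1) of male, 44.1% (37.8 to 50.6) of female ERaKO and 22.3% (16.05 to 29.6) of female mural cells. Within cluster 11, Ren1 stood at 131006 CPM in 98 male, 193429 in 109 female ERaKO and 139878 in 35 female cells. The log2 differences there were 0.47 (0.45 to 0.48) for female ERaKO over female and -0.09 (-0.11 to -0.08) for male over female, so neither reached 1.5-fold and the male level was slightly below the female one. The gap seen over the whole class went together with the larger share of cluster 11 cells in the female ERaKO library. In cluster 14, Ren1 was at 8066, 11343 and 11082 CPM in 66, 55 and 27 male, female ERaKO and female cells. In cluster 10 it was at 683, 1253 and 82.2 CPM in 122, 83 and 95 cells, with log2 differences of 3.91 (3.55 to 4.34) for female ERaKO over female and 3.04 (2.67 to 3.47) for male over female. Few cells carried this: 6, 3 and 2 male, female ERaKO and female cells of cluster 10 were Ren1-rich, and its median cell held 0 Ren1 UMIs in every library.

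**Figure D3:**
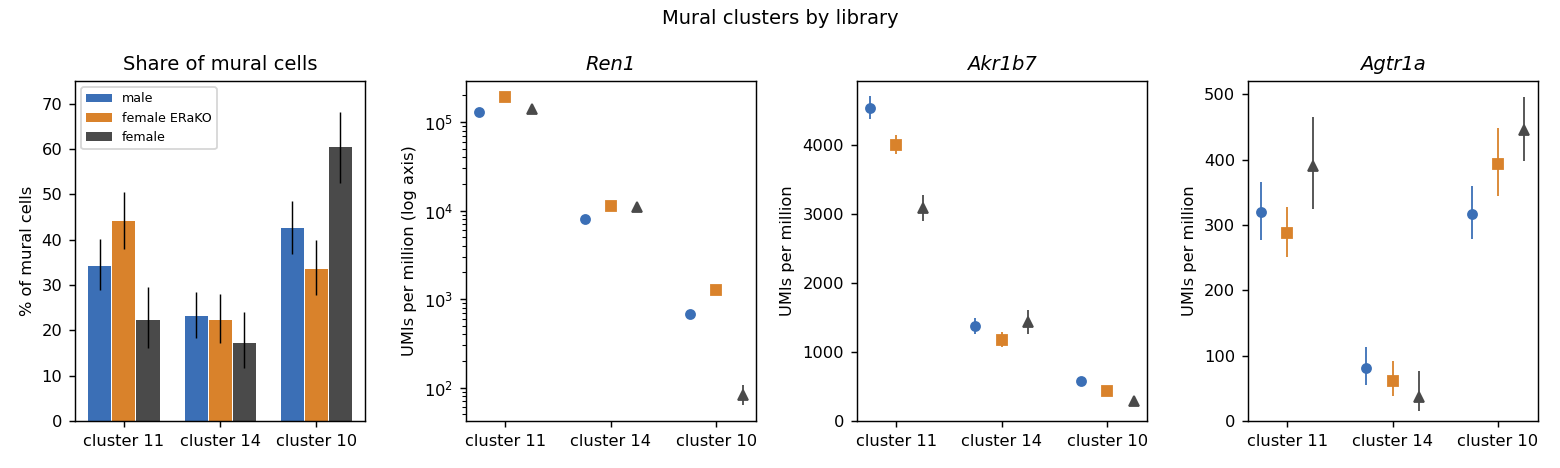
The 3 mural clusters by library, with the male left, female ERaKO in the middle and female right: share of mural cells in % with exact binomial intervals, then the levels of Ren1 (log axis), Akr1b7 and Agtr1a in CPM with Poisson intervals. Cluster 11 has its largest share in the female ERaKO library and cluster 10 in the female library, and Ren1 differs far more between clusters than between the libraries within cluster 11.

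Akr1b7 (ENSMUSG00000052131, chr6:34412334-34423142, plus strand) encodes an aldo-keto reductase that is used in mice as a further marker of renin cells. It followed Ren1 in place, with 96.3%, 92.4% and 94.6% of its UMIs in mural cells of the male, female ERaKO and female libraries. Its mural level was 2134 (2067 to 2202) CPM in male, 2219.6 (2150.3 to 2291) in female ERaKO and 1179 (1119.6 to 1241) in female cells. The male and female ERaKO levels lay close together and the female level was the lowest. The log2 difference was 0.85 (0.77 to 0.94) for male over female and 0.91 (0.83 to 1.0001) for female ERaKO over female, both past 1.5-fold. Within cluster 11 the level was 4543, 4014 and 3087 CPM in male, female ERaKO and female cells. The differences there were smaller, at 0.56 (0.45 to 0.66) for male over female and 0.38 (0.28 to 0.48) for female ERaKO over female, and neither reached 1.5-fold. For each Akr1b7 UMI there were 22.3, 40.9 and 31.9 Ren1 UMIs in male, female ERaKO and female mural cells.

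Akr1b7 was graded along the Ren1 content of the cell and was also found in cells without Ren1. Mural cells with no Ren1 UMI held 539.7, 369.7 and 299 Akr1b7 UMIs per 1000000 UMIs of other genes than Ren1 in the male, female ERaKO and female libraries. Cells with 10 to 100 Ren1 UMIs per 10000 held 1829, 768 and 917 on the same scale. Cells at 1000 or more held 7489 (7170.2 to 7818), 6707 (6460.1 to 6961) and 6415 (5974 to 6879). Among mural cells with no Ren1 UMI, 76.2, 68.4 and 71.2% of male, female ERaKO and female cells still had an Akr1b7 UMI, at median depths of 6122, 6423 and 6766 UMIs. In podocytes, which should lack the gene, 2.41%, 2.47% and 0.786% of cells had one at median depths of 7794, 7414 and 9176 UMIs. Myh11 and Acta2 were chosen after their values were seen and stand for no list. Myh11, smooth muscle myosin heavy chain, stood at 1151 in male cells of the richest group against 3744 in male mural cells with no Ren1, at 760.0 against 3250.1 in female ERaKO cells and at 375 against 2072 in female cells. Acta2, smooth muscle actin, was at 4549 against 7408, 5576 against 7982 and 2331 against 4754 in the same libraries. Neither gene fell steadily with Ren1. In cells with 10 to 100 Ren1 UMIs per 10000, Myh11 was at 5020, 4289 and 4673 in the male, female ERaKO and female libraries. Acta2 was there at 8479, 10377 and 8716, so both genes stood above the cells with no Ren1 in each library. Both are among the markers that named the class.

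**Figure D4:**
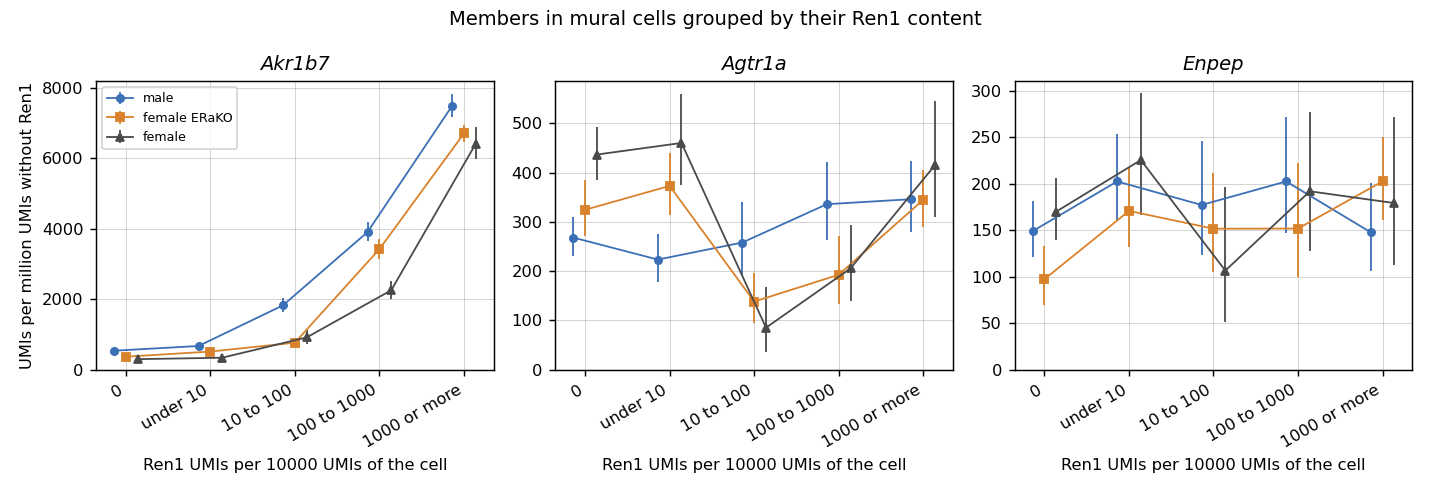
Akr1b7, Agtr1a and Enpep in mural cells grouped by their Ren1 UMIs per 10000 UMIs, in UMIs per 1000000 UMIs of other genes than Ren1, with 95% Poisson intervals, for the male, female ERaKO and female libraries. Akr1b7 is higher in each richer group in all 3 libraries, whereas Agtr1a and Enpep show no such gradient.

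Over single mural cells, the genes most like Ren1 among 6268 genes were ranked by the lowest of their 3 library correlations. These are descriptions, since the cells of a library share its depth and its free RNA. Fam46a came first, with r of 0.78, 0.80 and 0.79 in 286 male, 247 female ERaKO and 157 female cells. Akr1b7 followed with 0.77, 0.81 and 0.74. Then came Clu, a secreted chaperone, with 0.60, 0.65 and 0.71, Slco2a1, a prostaglandin transporter, with 0.60, 0.65 and 0.70, and Sfrp2, a secreted Wnt modulator, with 0.62, 0.60 and 0.72. The most opposed gene was Utrn, which encodes utrophin, with -0.51, -0.57 and -0.65. Agtr1a had r of 0.16, 0.02 and -0.15 and Enpep of 0.02, 0.15 and -0.02.

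In podocytes Ren1 was low, and nearly even per cell in the male and female libraries but less so in the female ERaKO library. Podocytes, which are not renin cells, had a Ren1 UMI in 32.1%, 45.6% and 14.5% of male, female ERaKO and female cells, at median depths of 7794, 7414 and 9176 UMIs. Ren1-rich podocytes numbered 0 of 1204 in the male, 12 of 809 in the female ERaKO and 0 of 1399 in the female library. After thinning, the variance of the counts was 1.14, 2.51 and 1.01 times the mean in male, female ERaKO and female podocytes, against 641, 786 and 785 times in mural cells. Counts that fall at random on cells of equal depth give 1. Over all cells outside the mural class that were not Ren1-rich, the level was 46.8, 81.2 and 13.9 CPM in the male, female ERaKO and female libraries. In each of the 6 other compared classes the female ERaKO library had the highest and the female library the lowest level among such cells. Whether the Ren1 UMIs of these cells are free RNA or expression was not tested.

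A few cells outside the mural class held far more. At 100 or more Ren1 UMIs per 10000 there were 2, 12 and 1 such cells in the male, female ERaKO and female libraries, and they held 46.8%, 78.4% and 33.4% of the Ren1 UMIs outside the mural class. In the female ERaKO library they were 4 parietal epithelial, 3 fibroblast, 3 endothelial, 1 lymphocyte and 1 proximal tubule cell. The highest parietal epithelial cell held 2065 Ren1 UMIs and the highest endothelial cell 1760. In the male library 1 phagocyte held 1171 UMIs, and in the female library 1 proximal tubule cell held 226. These cells had a median depth of 10000.5, 13272 and 8402 UMIs in the male, female ERaKO and female libraries, against 7544, 8334 and 9010 in the other cells outside the mural class. Their median doublet scores were 0.0405, 0.0860 and 0.0721, against 0.0341, 0.0283 and 0.0423. Whether they are pairs of cells was not tested. The smooth muscle markers summed to 53.1, 194 and 177 CPM in endothelial and 1329, 2672 and 1804 CPM in parietal epithelial cells of the male, female ERaKO and female libraries, and their part in the Ren1 levels was not tested.

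**Figure D5:**
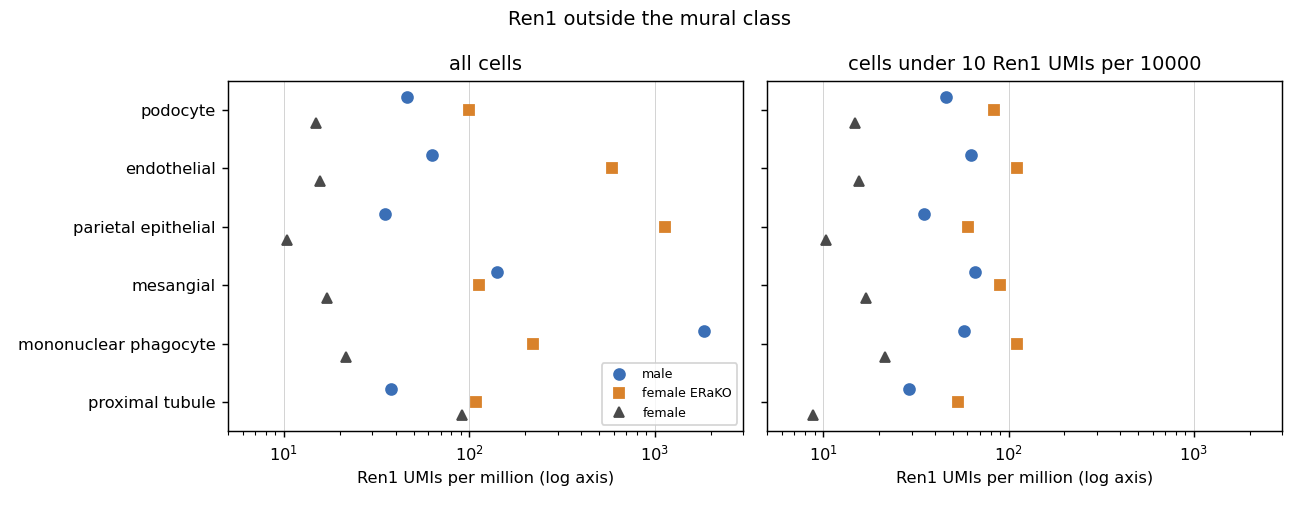
Ren1 in the 6 compared classes other than mural, in CPM on a log axis, over all cells and over cells with under 10 Ren1 UMIs per 10000, for the male, female ERaKO and female libraries. Among the cells under 10, every class has female ERaKO highest and female lowest, and the high values of male phagocytes and of female ERaKO endothelial and parietal epithelial cells are gone.

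These cells set several class levels. Fibroblasts were not among the compared classes, with 26 cells in the female library. Their Ren1 level was 47.1 CPM in 35 male and 11555.8 CPM in 37 female ERaKO cells. Of the latter, 3 were at 100 or more Ren1 UMIs per 10000. Over all cells, Ren1 in parietal epithelial cells was at 35.1, 1129.6 and 10.4 CPM in the male, female ERaKO and female libraries, and at 35.1, 60.8 and 10.4 without the Ren1-rich cells. In endothelial cells it was at 62.6, 589 and 15.7, against 62.6, 111 and 15.7 without them. In phagocytes it was at 1845, 219 and 21.5, against 57.7, 111 and 21.5. Proximal tubule cells showed the reverse for the male. There a single female cell put the female level at 91.6 CPM, above the male level of 37.9 and beside a female ERaKO level of 109. Without the Ren1-rich cells the levels were 28.9, 53.2 and 8.82 in the male, female ERaKO and female libraries.

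Agt (ENSMUSG00000031980, chr8:124556534-124569706, minus strand) encodes angiotensinogen, the substrate of renin. It was a low-abundance gene here, with 186, 644 and 187 UMIs in male, female ERaKO and female kept cells. Proximal tubule cells, which lie outside the glomerulus, held 67.2%, 81.1% and 83.96% of them. Their level was 39.2 (32.6 to 46.7) CPM in 173 male, 106 (96.7 to 115) in 271 female ERaKO and 57.5 (48.9 to 67.2) in 123 female cells. The female ERaKO level was highest and the male level lowest. The log2 difference was 0.87 (0.62 to 1.14) for female ERaKO over female, past 1.5-fold, and -0.54 (-0.90 to -0.21) for male over female, which was not. As a mean over cells the first fell short of 1.5-fold, at 0.50. The male difference passed 1.5-fold at -1.35 with doublets kept, -1.38 at clustering resolution 0.5 and -0.97 with classes assigned cell by cell. The levels were lower under a stricter mitochondrial limit. With at most 10% mitochondrial UMIs they were 4.27 CPM in the male and 26.2 in the female ERaKO library, and fewer than 30 female cells were left.

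The proximal tubule class was made of different clusters in the 3 libraries. Cluster 17, led by Aadat, Slc7a12 and Napsa, held 1, 86 and 39 male, female ERaKO and female cells. Cluster 16, led by Miox, Akr1c21 and Slc7a13, held 95, 36 and 3, and cluster 20, led by Pck1, Slc22a8 and G6pc, held 0, 56 and 43. Agt was concentrated in cluster 17, at 222 (202 to 244) CPM in the female ERaKO and 145 (122 to 170.3) in the female library. In cluster 12, led by Ugt2b37 and Slc4a4, it was at 40.8, 31.1 and 8.46 CPM in 77, 93 and 38 male, female ERaKO and female cells. Cluster 17 made up 31.7% of the proximal tubule cells in both the female ERaKO and the female library. Within clusters, the log2 difference for female ERaKO over female was 0.62 (0.35 to 0.90) in cluster 17. It was 1.76 (0.86 to 3.07) in cluster 12 and 1.48 (0.18 to 3.20) in cluster 20. For male over female it was 2.14 (1.27 to 3.45) in cluster 12, opposite in sign to the whole class at -0.54. The part of cluster make-up in the differences of the whole class was not tested. Parietal epithelial cells, which line the capsule around the glomerulus, came next with 26.6 (19.7 to 35.1), 21.9 (17.7 to 26.9) and 12.3 (6.54 to 21.01) CPM in male, female ERaKO and female cells, from 50, 92 and 13 UMIs. The log2 difference was 1.06 (0.21 to 2.12) for male over female and 0.79 (-0.01 to 1.80) for female ERaKO over female, and 0.38 and 0.45 as a mean over cells. In podocytes Agt stayed below 1 CPM in all libraries.

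Ace (ENSMUSG00000020681, chr11:105967945-105989964, plus strand) encodes angiotensin-converting enzyme. It was found mainly in 3 classes and had 284, 396 and 363 UMIs in all male, female ERaKO and female kept cells. Phagocytes had the highest level, at 129.9 (104 to 161) CPM in the male, 76.8 (50.6 to 112) in the female ERaKO and 177 (146 to 212) in the female library, with a UMI in 34.4%, 34.04% and 42.9% of cells at median depths of 6486, 6497 and 8524 UMIs. In podocytes, the class set beside it as background, 0.581%, 0.124% and 0.286% of cells had a UMI at median depths of 7794, 7414 and 9176 UMIs. Proximal tubule cells had 30.4 (24.7 to 37.1), 62.7 (55.9 to 70.1) and 72.2 (62.4 to 82.97) CPM in the male, female ERaKO and female libraries. Endothelial cells, where the enzyme is best known, had 13.7 (10.97 to 16.8), 8.33 (6.03 to 11.2) and 6.34 (4.60 to 8.51). Over the 3 libraries the ranges of these 3 classes did not overlap.

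The direction of the Ace difference depended on the class. For male over female the log2 difference was 0.999 (0.57 to 1.66) in endothelial and -1.22 (-1.61 to -0.89) in proximal tubule cells. With a pseudocount of 10 CPM the endothelial difference was 0.53, short of 1.5-fold. In the tubule it went with the cluster make-up given above: Ace was at 146 CPM in female ERaKO and 193 in female cells of cluster 17, which held 1 male cell, and at 70.4 CPM in male cells of cluster 16. For female ERaKO over female, phagocytes differed by -1.19 (-1.87 to -0.59), from 27 female ERaKO and 115 female UMIs. Markers of other cells also differed in that class. In male, female ERaKO and female phagocytes, capillary endothelial markers summed to 131, 318 and 1074 CPM, neutrophil markers to 25.97, 73.9 and 231 CPM and B lymphocyte markers to 6852, 395 and 335 CPM, and their part in the Ace values was not tested. Within the endothelium, Ace was concentrated in cluster 15, led by Esm1, Igfbp3 and Dll4, at 74.2 (52.5 to 102), 45.4 (26.9 to 71.7) and 26.7 (11.5 to 52.6) CPM in 67, 47 and 30 male, female ERaKO and female cells. In cluster 2, led by the general endothelial gene Kdr and the glomerular capillary gene Ehd3, it was at 16.9, 13.8 and 9.78. In cluster 3, led by Tspan8 and Thbs2, it was below 1 CPM in each library. Cluster 15 made up 8.59%, 9.36% and 4.37% of male, female ERaKO and female endothelial cells.

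Enpep (ENSMUSG00000028024, chr3:129269175-129332720, minus strand) encodes aminopeptidase A, which removes the first residue of angiotensin II. Among classes with at least 30 cells in a library its level was highest in podocytes. They held 89.2%, 82.9% and 90.9% of its UMIs in the male, female ERaKO and female libraries. The level was 1618 (1595 to 1642) CPM in 1204 male, 1552 (1524 to 1581) in 809 female ERaKO and 1507 (1488 to 1526) in 1399 female podocytes. The median podocyte held 13, 12 and 14 UMIs in the same libraries. The log2 difference was 0.10 (0.07 to 0.13) for male over female and 0.04 (0.01 to 0.07) for female ERaKO over female, far from 1.5-fold. Over the podocyte clusters in the 3 libraries (12 values) the level ran from 1381 to 1693 CPM.

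Lower Enpep levels were found in mural cells, at 162, 142 and 172 CPM in the male, female ERaKO and female libraries, and in parietal epithelial cells, at 133, 161 and 153. Distal convoluted tubule cells had 509 CPM in the male library, the only one with at least 30 of them. Their median was 0 UMIs in 36 male and 18 female ERaKO cells. In the 8 female cells, too few to compare, it was 26.5, against 14 in female podocytes. Fibroblasts had 291 CPM in the male and 249.8 in the female ERaKO library, and cells left unnamed had 592, 599 and 889 in the 3 libraries. Mesangial cells were low, at 30.7 (22.2 to 41.3), 13.2 (8.28 to 20.00) and 5.66 (1.17 to 16.5) CPM, from 43, 22 and 3 UMIs. The log2 differences of 2.25 (0.79 to 4.77) for male over female and 1.09 (-0.51 to 3.61) for female ERaKO over female rest on those 3 female UMIs. Within the endothelium, cluster 15 again had the most, at 176 (141 to 216), 499 (432 to 573) and 347 (284 to 420.4) in male, female ERaKO and female cells. Mme, also found in podocytes, was at 60.5, 171 and 137 CPM in the same cells. Podocyte markers summed to 1689.6, 1922.8 and 1681.1 CPM over all male, female ERaKO and female endothelial cells, and their part in these values was not tested.

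Mme (ENSMUSG00000027820, chr3:63241537-63386030, plus strand) encodes neprilysin, a peptidase that degrades angiotensins and natriuretic peptides. In podocytes it stood at 468 (456 to 481), 417 (402 to 432) and 430.2 (420.1 to 440.4) CPM in the male, female ERaKO and female libraries. The log2 differences of 0.12 (0.07 to 0.17) for male over female and -0.05 (-0.11 to 0.02) for female ERaKO over female were both far below 1.5-fold. Both peptidases were detected together in 94.02%, 93.8% and 95.1% of male, female ERaKO and female podocytes. Unlike Enpep, Mme reached a similar level in intercalated cells, a cell type of the collecting duct, at 461 CPM in the male and 331 in the female library. Parietal epithelial cells had 236 (214 to 259), 216 (202 to 230.3) and 158 (135 to 184) in the male, female ERaKO and female libraries. Proximal tubule cells had 167, 245 and 215. In mural cells Mme was low, at 6.56, 15.4 and 8.89 from 12, 27 and 11 UMIs. The log2 difference there for female ERaKO over female was 0.73 (-0.26 to 1.96), past 1.5-fold, but 0.43 with a pseudocount of 10 CPM. Endothelial cells had 11.5, 19.96 and 11.4 CPM, with 0.76 (0.37 to 1.25) for female ERaKO over female. That fell under 1.5-fold with doublets kept (0.19), at resolution 2 (0.31), cell by cell and with a pseudocount of 10 CPM.

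Agtr1a (ENSMUSG00000049115, chr13:30336441-30382867, plus strand) encodes the main type 1 angiotensin receptor of the mouse. Mesangial cells, the contractile cells between the capillary loops, had the highest level in every library, at 726 (682 to 772) CPM in 195 male, 673 (634 to 714) in 151 female ERaKO and 762 (689.8 to 840.5) in 51 female cells. A UMI was found in 98.5%, 98.01% and 96.1% of these cells, at median depths of 5781, 8509 and 7665 UMIs. In podocytes it was found in 2.24%, 0.865% and 1.36% of cells, at median depths of 7794, 7414 and 9176 UMIs. The log2 difference in mesangial cells was -0.07 (-0.24 to 0.10) for male over female and -0.18 (-0.35 to -0.01) for female ERaKO over female. Mural cells came next, at 265 (242 to 289.7), 274 (249.9 to 299.5) and 369 (336 to 404) CPM in the male, female ERaKO and female libraries. Their log2 differences were -0.47 (-0.66 to -0.29) for male over female and -0.43 (-0.62 to -0.24) for female ERaKO over female, short of 1.5-fold.

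Among mural clusters the receptor was lowest in the contractile cluster 14, at 80.6, 61.3 and 37.01 CPM in male, female ERaKO and female cells. In cluster 11, rich in Ren1, Agtr1a was at 319, 287 and 390.1, and in cluster 10 at 317, 394 and 445. Proximal tubule cells had 21.3, 20.8 and 22.3 CPM, nearly the same in the 3 libraries. In endothelial cells the values were 2.92, 10.3 and 9.51 CPM, from 19, 53 and 66 UMIs. The log2 difference for male over female there was -1.42 (-2.52 to -0.95), but -0.07 with doublets kept and -0.54 with classes assigned cell by cell, both under 1.5-fold. Its relative Agtr1b, another type 1 receptor gene of mice, had 14, 10 and 14 male, female ERaKO and female UMIs in mural cells. Agtr2, the type 2 receptor gene, had 1 UMI in all kept cells. Mas1, a receptor of a shorter angiotensin, had 1, 0 and 1 UMIs in mural cells.

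Atp6ap2 (ENSMUSG00000031007, chrX:12587801-12617049, plus strand) encodes the (pro)renin receptor, which is also an accessory part of the vacuolar proton pump. It was the most evenly spread of the 8 genes, with a UMI in at least 19.5% of the cells of every named class with 30 or more cells in a library. Intercalated cells, which rely on that pump, had the highest level, at 455 (422 to 489.7) CPM in 64 male and 412 (378 to 449) in 33 female cells. Principal cells had 175 CPM in the male and 252 in the female ERaKO library. Podocytes had 98.9 (93.1 to 105), 94.3 (87.4 to 102) and 115 (109.7 to 120.1) in the male, female ERaKO and female libraries, and mural cells 78.7, 65.2 and 67.1. Proximal tubule cells had 45.8 (38.6 to 53.8), 61.5 (54.8 to 68.8) and 73.3 (63.5 to 84.1). The log2 difference there was -0.67 (-0.997 to -0.36) for male over female, or -0.56 with classes assigned cell by cell, and no other compared class passed 1.5-fold in either comparison for this gene.

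Across the 7 classes compared, 56 gene by class pairs were possible. Of the 40 pairs with at least 20 UMIs summed over the male and female libraries, 10 were at least 1.5-fold higher in the male and 6 at least 1.5-fold lower. Over all genes and the same classes, 7.25% of pairs were higher and 7.01% lower. For female ERaKO over female, 16 of 43 pairs were higher and 2 lower, beside 7.47% higher and 7.23% lower over all genes. Ren1 and Akr1b7 made 7 of the 10 higher male pairs and 11 of the 16 higher female ERaKO pairs. In mural cells these were Akr1b7 in the male and both genes in the female ERaKO library. The rest, 6 and 9 pairs, lay in other classes, where Ren1 was low in most cells and some classes held a few Ren1-rich cells. Whether the signal there is free RNA was not tested. The counts therefore say nothing of the pathway as a whole. Of the remaining genes, Agtr1a, Enpep, Mme and Atp6ap2 differed by less than 1.5-fold in the compared class where each was highest.

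Other genes of the pathway were taken as lists, chosen with earlier results of these data known. In mural cells, 27 genes of renin release and renin gene regulation gave 19 tested for male over female, of which 3 were higher (Adcy5, Npr1 and Adora1) and 1 lower (Adrb1). Their median log2 difference was 0.14, against 0.00 over all genes of the class, where 7.26% were higher and 7.77% lower. For female ERaKO over female, 21 were tested, with 2 higher (Npr1 and Adora1) and 2 lower (Nr1h3 and Vdr). The median there was -0.07, against -0.07 over all genes, where 7.2% were higher and 11.1% lower. Npr1, the receptor of atrial natriuretic peptide, was at 62.9, 73.8 and 33.95 CPM in male, female ERaKO and female mural cells. Adora1, the adenosine receptor through which renin release is restrained, was at 48.1, 53.2 and 28.3. Adrb1, the adrenergic receptor that drives renin release, was at 21.9, 37.7 and 40.4.

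Of 11 angiotensin receptors and partners, 7 were tested in mural cells, and Agtrap and Rgs2 were higher in both comparisons, while Agtr1b was lower in female ERaKO cells. Over all genes of mural cells, 7.26% were higher in the male library. In the female ERaKO library 7.2% were higher and 11.1% lower. Rgs2, which ends signalling of the type 1 receptor, was at 377.1, 311 and 195 CPM in male, female ERaKO and female mural cells. Gna11, a G protein subunit that the type 1 receptor can use, was higher in both comparisons in parietal epithelial cells, at 89.9, 87.6 and 56.7 CPM. Of all genes there, 11.4% were higher in the male and 10.4% in the female ERaKO library. Gja5, a gap junction gene needed for the pressure control of renin, was at 230.2, 259 and 230.2 CPM in male, female ERaKO and female mesangial cells, with 70.5, 93.2 and 63.9 in mural cells. Gja4, another gap junction gene, was at 179.8, 200.1 and 166 in mural and 199.9, 193 and 135 in endothelial cells.

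Of 15 other enzymes that form or degrade angiotensins, 10 were tested in mural cells. For male over female, 3 were higher (Nln, Dpp3 and Klk1) and 1 lower (Rnpep), and for female ERaKO over female 2 were higher (Nln and Dpp3) and 0 lower. The shares over all genes of mural cells are those given above. Klk1, tissue kallikrein, was past 1.5-fold higher in the male library in 6 of the 7 compared classes, all but parietal epithelial cells. The share of all genes higher in the male library ran from 2.08% in podocytes to 12.4% in proximal tubule cells. Its highest class was intercalated cells, at 5668 CPM in 64 male and 3492 in 33 female cells, and their part in the other classes' values was not tested. Anpep, aminopeptidase N, was at 15.98, 26.7 and 32.2 CPM in male, female ERaKO and female proximal tubule cells. Rnpep, aminopeptidase B, was at 38.2, 33.1 and 40.6 CPM in endothelial cells. Of 6 genes of the mineralocorticoid arm 2 were tested in mural cells, where Nr3c2, the aldosterone receptor, was higher in the male. Of 6 close relatives of the 8 genes 5 were tested, with Agtr1b again the only one past 1.5-fold, lower in female ERaKO cells.

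Across 30 points, each a class of at least 30 cells in a library (12 classes), the genes whose pattern was most like each of the 8 were named from the 3 highest Pearson correlations. For Ren1 they were Kirrel3 (0.91), Akr1b7 (0.88) and Kcnk3 (0.88), and for Akr1b7 they were Tusc5 (0.92), Aoc3 (0.91) and Kirrel3 (0.91). For Agt they were Cpn1 (0.93), Tmem56 (0.93) and Slc1a1 (0.92), and for Ace they were Kmo (0.91), H2-DMb2 (0.87) and Apobec1 (0.86). For Agtr1a they were Gucy1a1 (0.95), Gdf10 (0.94) and S1pr3 (0.93). For Enpep they were Plce1 (0.95), Foxc2 (0.95) and Gas1 (0.91), for Mme Pkp2 (0.87) and Steap2 (0.87), and for Atp6ap2 B3gnt7 (0.85), Guca2a (0.85) and Wscd2 (0.84). Points of 1 library share its depth and free RNA, so these are descriptions. Genes with at least 100 UMIs in all were considered, and some of those named had few. Over these points Kirrel3 had 156 UMIs, Tmem56 192, H2-DMb2 123 and B3gnt7 132.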

How the data were processed

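Per the labels, 1 library each of a male, a female ERaKO and a female mouse was made with 10x 3′ chemistry. The deposited files hold whole-number UMI counts, not normalised, for barcodes that had passed a cell filter not given in the sources used here. The submitters' processing notes name Cell Ranger (6.1.2), STAR (2.7.5a) and mm10. Totals were 44585342 (male), 47522141 (female ERaKO) and 44942380 (female) UMIs. Barcodes with under 500 genes or over 25% mitochondrial UMIs were dropped. Scrublet, in scanpy 1.11.5, scored doublets; a score of 0.2, set after the scores were seen because the automatic limit called almost no cell in 1 library, removed 109 male, 93 female ERaKO and 72 female cells. From 30 principal components of 2000 variable genes, leidenalg 0.10.2 (resolution 1, 15 neighbours) made 29 clusters, without the 8 genes and 64 other pathway genes. Clusters of at least 20 cells were named from 20 marker lists, by minima set after the clusters were seen (mean marker score of 1, lead of 0.75, at least 3 raised markers), and 127 male, 107 female ERaKO and 122 female cells stayed unnamed.

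Counts were summed per class and library and scaled to 1000000. Log2 differences used a pseudocount of 1 CPM, and the limit was 1.5-fold for pairs with at least 20 summed UMIs, in the 7 classes with at least 30 cells in each library. Intervals are exact (Poisson, Clopper-Pearson, conditional ratio). Pathway genes were named where at least 1 library reached 50 CPM in a compared class and both comparisons passed 1.5-fold in 1 direction, and Agtr1b, Agtr2, Mas1, Anpep, Rnpep, Gja5, Gja4 and Adrb1 whatever their values; 2 genes that the naming rules select are not reported here. Other list genes, Utrn, the contractile genes and the clusters described were picked after their values were seen. The 8 genes, lists and rules were chosen with earlier results of these data known. Positions are from GENCODE on GRCm38, the assembly that mm10 names. The counting steps were tested on simulated Poisson counts only, so that run does not bear on the spread of real counts between cells or mice. Ren2 is not among the features. Levels from 3′ tags compare genes only roughly. Python 3.11.15 was used with igraph 0.11.9, matplotlib 3.10.9, pandas 2.3.3, scipy 1.17.1 and numpy 2.4.6.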

Additional observations from a re-analysis of the deposited data

Results flagged for a closer look

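For 4 genes the male over female difference took opposite directions in separate classes, which was not tested as a difference between classes. Ren1 differed by 6.36 on the log2 scale in phagocytes, where 1 male cell held 1171 of 1208 UMIs, and by -1.25 in proximal tubule, where 1 female cell held 226 of 250. Akr1b7 differed by 1.06 in podocytes, at 2.63 male and 0.738 female CPM, and by -0.70 in endothelial cells, at 3.53 male and 6.34 female CPM. Neither Akr1b7 value held under all settings: the endothelial one turned to 0.57 with doublets kept and 0.61 at resolution 2, and the podocyte one was 0.23 with a pseudocount of 10 CPM. The Ren1 direction in proximal tubule turned in 6 settings, given below. Ace differed by 0.999 in endothelial cells and -1.22 in proximal tubule. Enpep differed by 2.25 in mesangial cells and -2.62 in phagocytes, where the male library had 7 UMIs and the female one 46. The mesangial Enpep value turned to -1.44 with doublets kept, and the phagocyte one was -0.53, under 1.5-fold, with classes assigned cell by cell. For female ERaKO over female, Akr1b7 differed by 4.10 in parietal epithelial cells, from 68 female ERaKO and 0 female UMIs, so that the value depends on the pseudocount, and by -1.86 in mesangial cells, from 17 and 21, and this was not tested either.

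Barcodes left out of the comparisons also held some of the 8 genes above their level in the same kind of barcode of the female library. Over the mitochondrial limit, Ren1 was at 193 CPM in the male and 271 in the female ERaKO library, against 10.8 in the female one. Akr1b7 there was at 6.54 and 12.9, against 1.30. Among called doublets, Ren1 was at 1488 CPM in the male and 2764 in the female ERaKO library, against 647 in the female one, and Akr1b7 at 168 and 68.00, against 22.2. Agt was at 28.7 CPM in female ERaKO doublets, against 1.78 in female ones, and Agtr1a at 111 in male doublets, against 30.2 in female ones.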

How the results depend on the processing

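Of 1145 recomputed ratios, 998 moved by less than their counting interval, 133 moved further and 14 that were past 1.5-fold changed sign. Sign changes numbered 81 in all, since 26 of those that moved and 41 inside their interval, all under 1.5-fold at the outset, changed sign too. Of 143 recomputed levels, 108 likewise stayed and 35 moved. No paired analysis was possible because each group is 1 library. The cause of the changes below was not tested.

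In mural cells, the Ren1 log2 difference for male over female (0.34) was 0.50 with at most 10% mitochondrial UMIs, 0.45 with called doublets kept, 0.36 with classes assigned cell by cell, 0.57 as a mean over cells and 0.42 without the top cell of each library. For female ERaKO over female (1.27) it was 1.62, 1.29, 1.17, 1.62 and 1.40 under the same settings, 1.29 at Leiden resolution 2, 1.34 with median-of-ratios size factors and 1.35 with Ren1 left out of the total, which was added after seeing the data. The Akr1b7 difference for male over female (0.85) was 0.99 with doublets kept, 0.98 cell by cell and 0.97 as a mean over cells. For female ERaKO over female (0.91) it was 1.11 with at most 10% mitochondrial UMIs, 1.10 as a mean over cells and 1.005 without the top cell. Taking 1 cluster alone, also added after seeing the data, changed most. In cluster 11 the Ren1 differences were -0.095 (male) and 0.47 (female ERaKO) and those of Akr1b7 0.56 and 0.38. In cluster 10 they were 3.04 and 3.91 for Ren1 and 1.02 and 0.60 for Akr1b7.

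The Ren1 difference for male over female in proximal tubule (-1.25) turned to 2.13 with doublets kept, 2.08 at resolution 0.5, 2.07 at resolution 2, 1.86 cell by cell, 1.61 without the top cell and 1.99 without cells of 100 or more Ren1 UMIs per 10000, the last added after seeing the data. With doublets kept, Ren1 in parietal epithelial cells turned to -1.87 for male over female, Akr1b7 in endothelial cells to 0.57 for male over female (0.61 at resolution 2), and Enpep in mesangial cells to -1.44 for male and -1.67 for female ERaKO over female. Akr1b7 for female ERaKO over female turned to 2.22 in mesangial cells cell by cell, and to -0.58 in podocytes and -0.16 in proximal tubule with the level of the lowest class subtracted as free RNA.

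The 10 higher male pairs became 16 with no minimum of UMIs, and the 6 lower ones 3 with at most 10% mitochondrial UMIs. The 16 higher female ERaKO pairs became 10 with a pseudocount of 10 CPM, and the 2 lower ones 4 with doublets kept, 10 with free RNA subtracted and 1 with a minimum of 50 UMIs. The share of Ren1 UMIs in mural cells was 96.7% (male), 92.1% (female ERaKO) and 98.4% (female) with at most 10% mitochondrial UMIs, and 84.9%, 76.7% and 97.05% cell by cell. With doublets kept it was 91.6% in the female ERaKO and 98.4% in the female library. The shares of Ren1-rich mural cells stayed within their counting intervals under the alternatives run. Depth limits the low pairs most, such as Enpep in female mesangial cells with 3 UMIs.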
